A study of Mus musculus with 6 samples.

Results

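The genes described are 10 cytokine and chemokine genes that B-cells can express, Il10, Il6, Tnf, Lta, Ltb, Tgfb1, Ebi3, Ccl3, Ccl4 and Ccl22. They were looked up by name in the count table, where all 10 were found among 46963 gene names. The RNA came from B-cells of the spleen, depleted of CD43-bearing cells, of mice that were wt, Eμ-deficient or 3′RR-deficient, so that the levels can be followed from resting to LPS-stimulated cells and set beside each other in the 3 genotypes. Eμ and the 3′RR are enhancer regions at the ends of the immunoglobulin heavy chain (IgH) constant locus, and LPS (lipopolysaccharide) is a bacterial cell wall component that activates B-cells through Toll-like receptor 4.

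Each genotype has 1 resting and 1 LPS library, 6 in all, and per the labels each library pools cells of 2 mice. All mice were on a 129 background, 8 to 12 weeks old, male and female. The wt mice were 129 animals, the Eμ-deficient mice lack Eμ with its matrix attachment regions, and the 3′RR-deficient mice lack the 3′RR. LPS-stimulated cells were kept for 2 days with 5 μg per ml LPS, a dose that 1 protocol text gives in mg per ml. The study's methods describe 2 pools per genotype, where the table holds 1 library. The resting cells were, per the sample labels, cultured for 2 days in medium alone, whereas the study's methods place them before stimulation, so that time in culture and LPS cannot be told apart if the second account holds. Neither enhancer has a row in a table of genes, so these counts do not check the genotypes.

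The genes received 16094475 counts in the resting wt library, 13406257 in the resting Eμ-deficient library and 20780706 in the resting 3′RR-deficient library. After LPS they received 21998587, 10936243 and 9111974 counts, in the same order of genotypes. Levels are given as CPM, counts set against library sizes that edgeR's TMM method scaled. With 1 library per genotype and state, there is no replicate within a group and no test between genotypes in a state. A ratio of 2 libraries is given with its exact (Clopper-Pearson) 95% interval, which covers counting error only and compares libraries, not genotypes. Each ratio was also set beside the range of the log2 ratios of 35 spike-in RNAs around their median in the same pair of libraries. These RNAs had at least 100 counts in every library, a level that many of the compared counts do not reach. The standard deviation of their log2 ratios ran from 0.135 to 1.267 between pairs of libraries. The study's methods do not mention these RNAs. Whether each library received the same mix is thus not known, and the range may hold more than technical error.

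Cytokines are secreted or membrane-bound proteins by which immune cells change the growth, survival or function of other cells, and chemokines are the subgroup that guides cell migration. In B-cells, lymphotoxins build and maintain the architecture of lymphoid organs, interleukin 10 and the interleukin 35 subunit Ebi3 are known from regulatory B-cells, and interleukin 6 supports plasma cells and T-cell responses. Many of these genes respond to NF-κB, a transcription factor that Toll-like receptor 4 activates, and several of their mRNAs carry AU-rich elements in the 3′UTR through which proteins such as tristetraprolin (Zfp36) promote decay.

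The 10 genes lie at 7 places in the mouse genome (GRCm38, the build of the mapping). Ltb (chr17:35194439-35196320, plus strand), Tnf (chr17:35199381-35202007, minus) and Lta (chr17:35203165-35205351, minus) are neighbours, with 3060 bases between Ltb and Tnf and 1157 between Tnf and Lta. Ccl3 (chr11:83647844-83649355, minus) and Ccl4 (chr11:83662584-83664683, plus) are 13228 bases apart. The others are single, namely Il10 (chr1:131019845-131024974), Il6 (chr5:30013114-30019981), Tgfb1 (chr7:25687002-25705077), Ebi3 (chr17:55952640-55957022) and Ccl22 (chr8:94745590-94751699), all on the plus strand. Lta and Ltb each hold an annotated microRNA gene on their own strand, Mir6974 with 0 counts in all 6 libraries and Mir6973a with 1 to 22, and Ebi3 overlaps Gm16712 on the other strand, which had 3 to 15 counts.

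RefSeq promoters (GRCm38.p6, 250 bases before to 50 after the start) were matched for 8 of the 10 genes, all but Il10 and Ccl4, and searched on both strands. The letters GGNNTTTCC, a core of the NF-κB motif, stood in 3 of the 8, those of Il6, Ltb and Ebi3, and in 5.82% of 32851 mouse promoters. The AP-1 letters TGANTCA (7.81% of promoters) stood in that of Il6, and the STAT letters TTCNNNGAA (8.30%) in those of Lta and Ltb. TATAAA (13.6%) stood in those of Tnf and Lta. A match is a description of letters and not a measured binding site. The promoters of Il6 and Ltb are shown because both hold the NF-κB letters while their levels moved in opposite directions with LPS, as described further on. They are the 250 bases before the RefSeq start, 5′ to 3′ on the gene's strand, with the matched letters in capitals, AP-1 and then NF-κB in Il6 (chr5:30012864-30013113, plus strand) and STAT and then NF-κB in Ltb (chr17:35194257-35194506, plus strand). The RefSeq start of Ltb lies inside the gene span given above, so the last bases of its stretch fall within that span.
Il6: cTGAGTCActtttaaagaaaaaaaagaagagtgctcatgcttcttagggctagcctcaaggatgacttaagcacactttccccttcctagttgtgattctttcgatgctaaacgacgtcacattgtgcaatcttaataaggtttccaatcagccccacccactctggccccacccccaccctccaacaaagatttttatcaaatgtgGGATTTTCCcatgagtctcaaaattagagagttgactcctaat
Ltb: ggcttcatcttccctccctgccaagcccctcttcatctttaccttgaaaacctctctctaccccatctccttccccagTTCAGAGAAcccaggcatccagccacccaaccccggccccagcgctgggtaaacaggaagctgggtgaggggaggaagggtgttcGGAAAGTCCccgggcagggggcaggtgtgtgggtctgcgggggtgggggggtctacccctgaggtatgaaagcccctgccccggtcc

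The AU-rich pentamer ATTTA was counted in the longest annotated 3′UTR of each gene. It occurred 10 times in Il6, 8 in Tnf, 6 in Il10, 5 in Ccl3, 3 in Lta, 2 each in Ccl4 and Ccl22, 1 each in Tgfb1 and Ebi3, and 0 times in Ltb. Of 20784 protein-coding genes with a 3′UTR, 65.4% had the pentamer, with a median of 1 per gene. The longer TTATTTATT occurred 5 times in Tnf and once in Lta, and 7.73% of the 20784 genes had it. The 30 bases of these neighbouring genes with the most pentamers are shown with the pentamers in capitals, for Tnf at chr17:35199679-35199708 and for Lta at chr17:35203408-35203437, both on the minus strand.
Tnf: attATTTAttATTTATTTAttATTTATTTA
Lta: tATTTAtggagagaaaagttaagttATTTA

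All 10 genes had at least 10 counts in at least 2 libraries and entered the test for LPS, an edgeR quasi-likelihood model over the 6 libraries with additive terms for genotype and state. Il10, Il6, Ebi3 and Ccl22 rose with LPS, and Lta, Ltb and Tgfb1 fell, while Tnf, Ccl3 and Ccl4 were not called at a Benjamini-Hochberg adjusted p of 0.05. The 4 rises compare with 2883 of 14600 genes tested, or 19.7%, and the 3 falls with 3079, or 21.1%. In the same 4 genes every LPS library lay above every resting library, as in 25.0% of the genes tested, and in the same 3 every LPS library lay below, as in 27.3%. For Il6 this rests on low counts, 8 in the 3′RR-deficient LPS library and at most 6 in each resting library. The median log2 fold change of the 10 genes was -0.10, against -0.07 over all genes tested. The calls are thus divided between directions, as those of all genes are. The residual of this model is the departure of the genotypes from a common LPS effect, not the spread between mice.

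**Figure D1:**
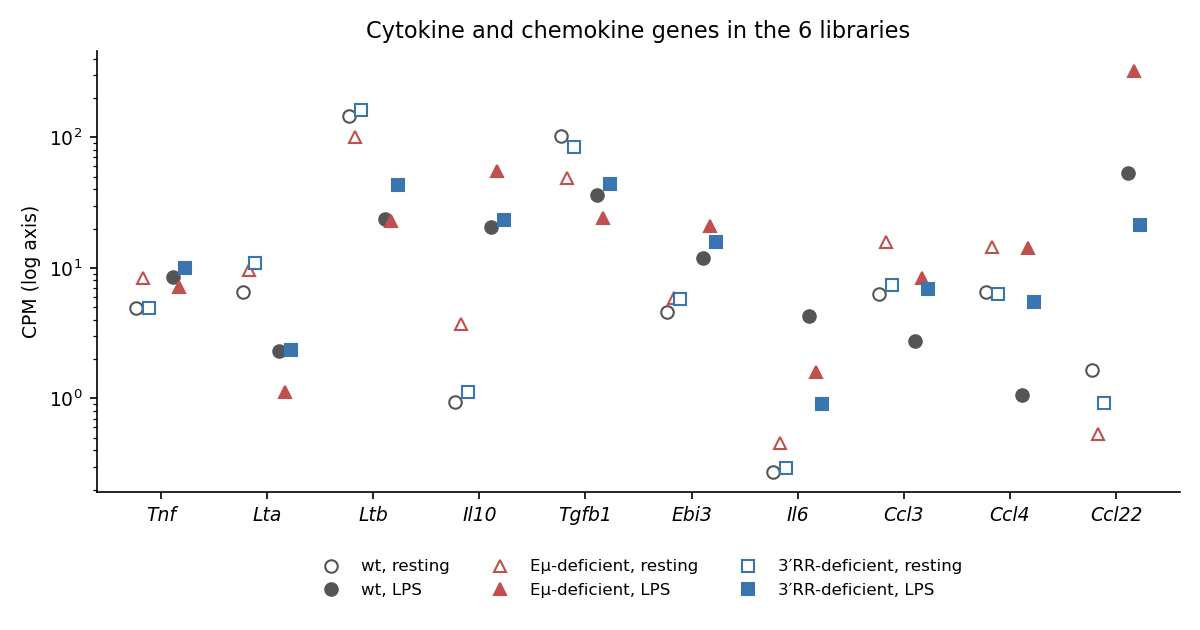
Level of each gene in CPM (log axis) in the 6 libraries, open symbols for resting and filled symbols for LPS libraries. Ltb was highest at rest, at 101 to 162 CPM, and Ccl22 reached 323 CPM in the LPS-stimulated Eμ-deficient library.

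The plot of levels shows the range of the 10 genes, from 0.275 CPM for Il6 to 323 CPM for Ccl22. Between genes, levels compare only per kilobase of exons. By the median of the 3 resting libraries, Ltb came first with 95.6 CPM per kilobase, followed by Tgfb1 with 16.7, Ccl4 with 9.92, Ccl3 with 9.58 and Lta with 6.95. Ebi3 had 5.01, Tnf 3.03, Il10 0.853, Ccl22 0.397 and Il6 0.120 CPM per kilobase. After LPS the order was Ccl22 with 22.8, Il10 with 17.8, Ltb with 15.7, Ebi3 with 13.6, Ccl3 with 8.95, Ccl4 with 8.34 and Tgfb1 with 7.10, then Tnf with 5.16, Lta with 1.66 and Il6 with 0.656 CPM per kilobase. By this median, Ccl22 and Il10 thus moved from the lower end of the order to its head. In the 3′RR-deficient LPS library alone, Ltb came first with 28.6 CPM per kilobase. There Il10 had 17.8, Ebi3 13.6 and Ccl22 9.18. Il6 was last by the median in both states. In the wt LPS library, however, it had 1.77 CPM per kilobase, above Lta with 1.66 and Ccl4 with 1.59. Some neighbours in this order, such as Ccl3 and Ccl4 at rest, overlap across the libraries and are not separated. Others, such as Ltb and Tgfb1 at rest, do not overlap.

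Ltb encodes lymphotoxin β, the membrane anchor of the lymphotoxin α1β2 trimer on B-cells. It had 2635 counts (145 CPM) in the resting wt library, 1338 (101 CPM) in the Eμ-deficient and 3330 (162 CPM) for 3′RR deficiency. After LPS it had 498 (23.8 CPM), 244 (22.9 CPM) and 386 counts (43.4 CPM), respectively. All LPS libraries lay well below all resting libraries. The log2 fold change was -2.22 (SE 0.25, edgeR quasi-likelihood, Benjamini-Hochberg adjusted p = 0.000284), with a fall in 3 of 3 genotypes. Within states, the resting Eμ-deficient library was lower than wt, at a log2 ratio of -0.52 (95% interval -0.61 to -0.42), just below the lowest spike-in RNA of that pair, -0.47, and it ranged over the alternatives from -1.33 with spike-in scaling to 0.01 once ratios were corrected for GC content. The 3′RR-deficient LPS library was higher than wt at 0.86 (95% interval 0.67 to 1.06), which the spike-in RNAs of that pair, at -3.38 to 1.4, also span. It was 0.15 with ratios corrected for GC content and 1.41 with spike-in scaling.

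Lta encodes lymphotoxin α, which is secreted as a homotrimer or joins Ltb at the membrane. It had 118 (6.49 CPM), 127 (9.61 CPM) and 223 counts (10.8 CPM) in the resting wt, Eμ-deficient and 3′RR-deficient libraries, and 48 (2.29 CPM), 12 (1.12 CPM) and 21 counts (2.36 CPM) after LPS. The states did not overlap, and the Eμ-deficient library showed the deepest fall, 8.55-fold against 2.83-fold in wt. The log2 fold change was -2.20 (SE 0.37, edgeR quasi-likelihood, adjusted p = 0.002) and was -1.74 without the Eμ-deficient libraries. Relative to wt, the resting libraries of both mutants were higher, by log2 ratios of 0.57 (95% interval 0.19 to 0.94) for Eμ-deficient and 0.74 (95% interval 0.41 to 1.07) for 3′RR-deficient cells. With libraries scaled by the spike-in total the Eμ-deficient ratio was -0.25, so that its direction depends on the scaling. After LPS the Eμ-deficient ratio was -1.03 (95% interval -2.08 to -0.10), which rests on 12 against 48 counts, and the 3′RR-deficient ratio was 0.04 (95% interval -0.77 to 0.81). Of these 4 ratios only the resting 3′RR-deficient one lay outside the spike-in RNAs of its pair.

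Tnf encodes tumour necrosis factor, an inflammatory cytokine made as a membrane protein and shed by Adam17. Its 90 (4.95 CPM), 110 (8.32 CPM) and 102 counts (4.96 CPM) at rest in wt, Eμ-deficient and 3′RR-deficient libraries compare with 177 (8.46 CPM), 76 (7.12 CPM) and 89 (10 CPM) after LPS. The states overlapped, because the resting Eμ-deficient library lay above the LPS library of the same genotype. The additive model gave a log2 fold change of 0.53 (SE 0.32, edgeR quasi-likelihood, adjusted p = 0.222). By genotype, the LPS to resting log2 ratio was 0.77 in wt (95% interval 0.40 to 1.16), 1.01 in 3′RR-deficient cells (95% interval 0.58 to 1.44) and -0.23 in Eμ-deficient cells (95% interval -0.67 to 0.21). The difference between genotypes was not tested, since there is no replicate of any of these ratios. The wt ratio lies inside the spike-in range of its pair, -0.69 to 2.28, and the 3′RR-deficient ratio is at the upper end of its own, 1.01. Ltb and Lta, the neighbours of Tnf, were lower after LPS in every genotype, while no change of Tnf was established.

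Il10 encodes interleukin 10, an anti-inflammatory cytokine of regulatory B-cells and plasmablasts. It had 17 counts (0.935 CPM) in the resting wt library, 49 (3.71 CPM) in the Eμ-deficient and 23 (1.12 CPM) for 3′RR deficiency. After LPS it had 432 (20.6 CPM), 593 (55.5 CPM) and 207 counts (23.3 CPM). The states did not overlap, and in both states the Eμ-deficient library was the highest. The rise was 22.1-fold in wt, 15.0-fold in Eμ-deficient and 20.8-fold in 3′RR-deficient cells, and differences between the genotypes were not tested. With spike-in scaling the Eμ-deficient to wt log2 ratio was 1.17 at rest and 1.58 after LPS. The order of the rises thus depends on the scaling. The log2 fold change was 4.22 (SE 0.28, edgeR quasi-likelihood, adjusted p = 6.65e-05).

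The Eμ-deficient to wt log2 ratio of Il10 was 1.99 (95% interval 1.17 to 2.88) at rest and 1.43 (95% interval 1.25 to 1.61) after LPS. Both lay above the highest spike-in RNA of their pair, 1.30 and 0.57, though with spike-in scaling the resting ratio was 1.17. In the additive model the Eμ-deficient coefficient was 1.65 (SE 0.32, edgeR quasi-likelihood, adjusted p = 0.051), which was not called. Over 10 alternative fits its adjusted p ranged between 0.00229, when low counts were not filtered, and 0.446, with libraries scaled by the spike-in total, and it passed 0.05 in 3 of them. The 3′RR-deficient ratio was 0.26 (95% interval -0.71 to 1.25) at rest and 0.17 (95% interval -0.08 to 0.41) after LPS. The second was 0.72 with spike-in scaling and 0.60 with ratios corrected for GC content, so that it depends on the scaling.

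Tgfb1 encodes transforming growth factor β1, which is secreted in a latent form and restrains lymphocyte activation. It had 1862 (102 CPM), 639 (48.4 CPM) and 1728 counts (84.0 CPM) in the resting wt, Eμ-deficient and 3′RR-deficient libraries, and 749 (35.8 CPM), 259 (24.3 CPM) and 388 counts (43.6 CPM) after LPS. All LPS libraries lay below all resting libraries, though the highest LPS library was close to the resting Eμ-deficient library. The log2 fold change was -1.15 (SE 0.23, edgeR quasi-likelihood, adjusted p = 0.00451). Without the Eμ-deficient libraries the adjusted p of this edgeR test was 0.0413, the highest among 14 alternative fits, the lowest being 0.000187 with the DESeq2 Wald test. The Eμ-deficient library was lower than wt in both states, with log2 ratios of -1.08 (95% interval -1.22 to -0.95) at rest, below the spike-in RNAs (-1.90 with spike-in scaling and -0.90 corrected for GC content), and -0.56 (95% interval -0.77 to -0.36) after LPS, within their range.

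Ebi3 encodes the β subunit shared by interleukins 27 and 35. Its counts at rest were 83 (4.57 CPM), 78 (5.90 CPM) and 119 (5.78 CPM) in wt, Eμ-deficient and 3′RR-deficient libraries, and 249 (11.9 CPM), 222 (20.8 CPM) and 140 (15.7 CPM) after LPS. The resting libraries were close together and all lay below the LPS libraries. The log2 fold change was 1.55 (SE 0.26, edgeR quasi-likelihood, adjusted p = 0.00194), with rises of 2.61-fold, 3.52-fold and 2.72-fold by genotype. In wt, however, the spike-in RNAs spread from -0.69 to 2.28 between the LPS and the resting library. The wt log2 ratio of Ebi3, 1.38, lay inside that range. After LPS the Eμ-deficient to wt log2 ratio was 0.80 (95% interval 0.54 to 1.07), above the highest spike-in RNA of 0.57 but under 2-fold. Of its partner subunits, Il12a, which forms interleukin 35 with Ebi3, had 7.77 to 17.2 CPM in the 6 libraries and was not called with LPS. Il27, the partner in interleukin 27, had at most 5 counts in any library and was too low to test. In the RefSeq promoter of Ebi3 the NF-κB letters begin at base 36 after the start (chr17:55952643-55952672, plus strand), shown in capitals.
Ebi3: ctccttctacctcaaGGCCTTTCCccacac

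Il6 encodes interleukin 6, a cytokine that acts on T-cells, plasma cells and hepatocytes. It had 5, 6 and 6 counts (0.275, 0.454 and 0.292 CPM) in the resting wt, Eμ-deficient and 3′RR-deficient libraries, all under 10, so that the resting genotypes are too low to compare. After LPS it had 90 (4.30 CPM), 17 (1.59 CPM) and 8 counts (0.899 CPM). The wt LPS library stood apart from the other libraries, and the 3′RR-deficient pair, with 6 and 8 counts, is too low to compare as well. The log2 fold change over the genotypes was 2.54 (SE 0.61, edgeR quasi-likelihood, adjusted p = 0.00987). Without the wt or without the Eμ-deficient libraries Il6 no longer had 10 counts in 2 libraries and was not tested. In LPS-stimulated cells the log2 ratio over wt was -1.43 (95% interval -2.28 to -0.67) for Eμ-deficient cells, below the lowest spike-in RNA of -1.18, and -2.26 (95% interval -3.51 to -1.22) for 3′RR-deficient cells, inside the wide spike-in range of that pair. Over the alternatives the second ratio ran from -2.31 to -1.37, the latter after correction for GC content.

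Ccl22 encodes a chemokine that attracts T-cells bearing the receptor Ccr4, and is made by dendritic cells, macrophages and activated B-cells. It had 30 counts (1.65 CPM) in the resting wt, 7 (0.530 CPM) in the Eμ-deficient and 19 (0.923 CPM) for 3′RR deficiency. After LPS it had 1108 (53.0 CPM), 3449 (323 CPM) and 190 counts (21.3 CPM). Each LPS library lay above each resting library, and the Eμ-deficient library was the lowest at rest and the highest after LPS. The rise was 32.1-fold in wt, 610-fold in Eμ-deficient and 23.1-fold in 3′RR-deficient cells, with 95% intervals of the log2 ratio of 4.48 to 5.58, 8.21 to 10.6 and 3.85 to 5.29. The log2 fold change was 6.02 (SE 0.78, edgeR quasi-likelihood, adjusted p = 0.000518), and 4.87 without the Eμ-deficient libraries.

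Between genotypes after LPS, the log2 ratio of Ccl22 to wt was 2.61 (95% interval 2.51 to 2.71) in Eμ-deficient cells, above all spike-in RNAs, and -1.31 (95% interval -1.54 to -1.09) in 3′RR-deficient cells, inside their range. At rest the ratios were -1.64 (95% interval -3.07 to -0.42) and -0.84 (95% interval -1.75 to 0.04). The 3 LPS levels thus spanned 21.3 to 323 CPM with no overlap of the counting intervals of the ratios. The additive genotype terms describe this poorly, and neither was called, at 1.51 for Eμ-deficient (SE 0.84, adjusted p = 0.784) and -1.16 for 3′RR-deficient cells (SE 0.88, adjusted p = 0.914) with edgeR's quasi-likelihood test. In 10 alternative fits the Eμ-deficient adjusted p was lowest when low counts were not filtered, at 0.0145, and highest with DESeq2's Wald test, at 1.

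Ccl3 and Ccl4 encode macrophage inflammatory proteins 1α and 1β, chemokines that B-cells secrete after antigen receptor stimulation. Ccl3 had 114 (6.27 CPM), 207 (15.7 CPM) and 151 counts (7.34 CPM) at rest in wt, Eμ-deficient and 3′RR-deficient libraries, and 58 (2.77 CPM), 89 (8.34 CPM) and 61 (6.85 CPM) after LPS. Ccl4 had 119 (6.55 CPM), 190 (14.4 CPM) and 129 counts (6.27 CPM) at rest and 22 (1.05 CPM), 151 (14.1 CPM) and 49 (5.50 CPM) after LPS. For both genes the states overlapped, the Eμ-deficient library was the highest in each state, and the wt LPS library was the lowest of the 6. Neither was called with LPS, at log2 fold changes of -0.73 (SE 0.31, adjusted p = 0.0866) and -0.84 (SE 0.48, adjusted p = 0.194) with edgeR's quasi-likelihood test. That of Ccl4 was -0.08 without the wt libraries. In wt alone Ccl4 was 6.22-fold lower after LPS, with a log2 ratio of -2.64 (95% interval -3.37 to -1.97), against -0.02 in Eμ-deficient cells (95% interval -0.34 to 0.29) and -0.19 in 3′RR-deficient cells (95% interval -0.69 to 0.30), a difference that was not tested.

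At rest the Eμ-deficient to wt log2 ratio was 1.32 (95% interval 0.98 to 1.66) for Ccl3 and 1.14 (95% interval 0.80 to 1.48) for Ccl4, with the highest spike-in RNA at 1.30, so that Ccl3 barely exceeds it and Ccl4 does not. With spike-in scaling these ratios were 0.51 and 0.32, under 2-fold. After LPS the ratios were 1.59 (95% interval 1.09 to 2.09) and 3.75 (95% interval 3.10 to 4.47), both above the highest spike-in RNA of 0.57. The 3′RR-deficient LPS library was also above wt, at 1.30 (95% interval 0.76 to 1.85) for Ccl3 and 2.39 (95% interval 1.63 to 3.18) for Ccl4, of which only that of Ccl4 exceeded the highest spike-in RNA of 1.4. Over both states, the Eμ-deficient terms were 1.44 (SE 0.38, adjusted p = 0.147) for Ccl3 and 2.19 (SE 0.60, adjusted p = 0.168) for Ccl4 in the edgeR quasi-likelihood model, and neither was called. Among 10 alternative fits that of Ccl3 passed 0.05 in 1 and that of Ccl4 in 2.

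**Figure D2:**
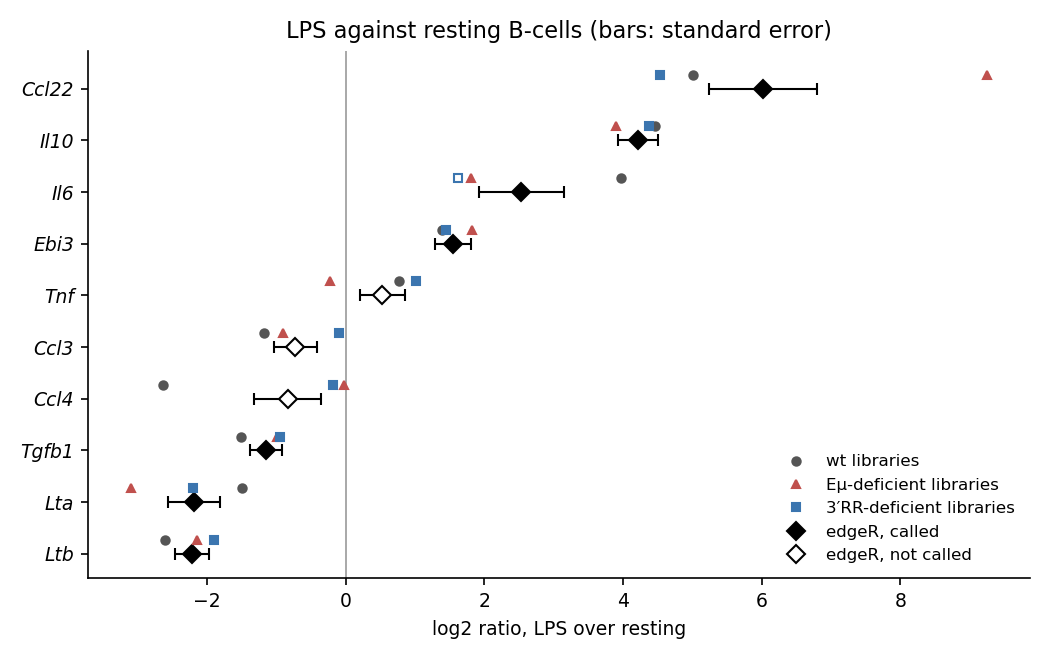
Log2 ratio of LPS over resting levels, with the edgeR estimate and its standard error (diamonds, filled where called) and the ratio of the 2 libraries of each genotype (small symbols, open where both libraries had under 10 counts). The genotypes lie close together for Il10 and Ebi3 and farthest apart for Ccl22, at 4.53 to 9.25.

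The plot of LPS ratios sets the genotypes side by side. Past 2-fold, the wt pair had 4 of 10 genes higher, against 21.7% of 14352 genes, and 5 lower, against 25.2%. The Eμ-deficient pair had 4 of 10 higher, against 17.1% of 14046 genes, and 2 lower, against 20.3%. The 3′RR-deficient pair, with Il6 left out as too low, had 4 of 9 higher, against 17.8% of 14172 genes, and 2 lower, against 23.1%. Il10, Ebi3 and Ccl22 were more than 2-fold higher, and Lta and Ltb more than 2-fold lower, in all 3 genotypes. Set beside the spike-in RNAs of the same 2 libraries, Il10, Ccl22, Lta and Ltb lay outside their range in all 3 genotypes, while Ebi3 lay inside it in wt and Tgfb1 in 3′RR-deficient cells. In bulk RNA, fewer cells of a type and less RNA per cell cannot be told apart, which holds for each of these changes.

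**Figure D3:**
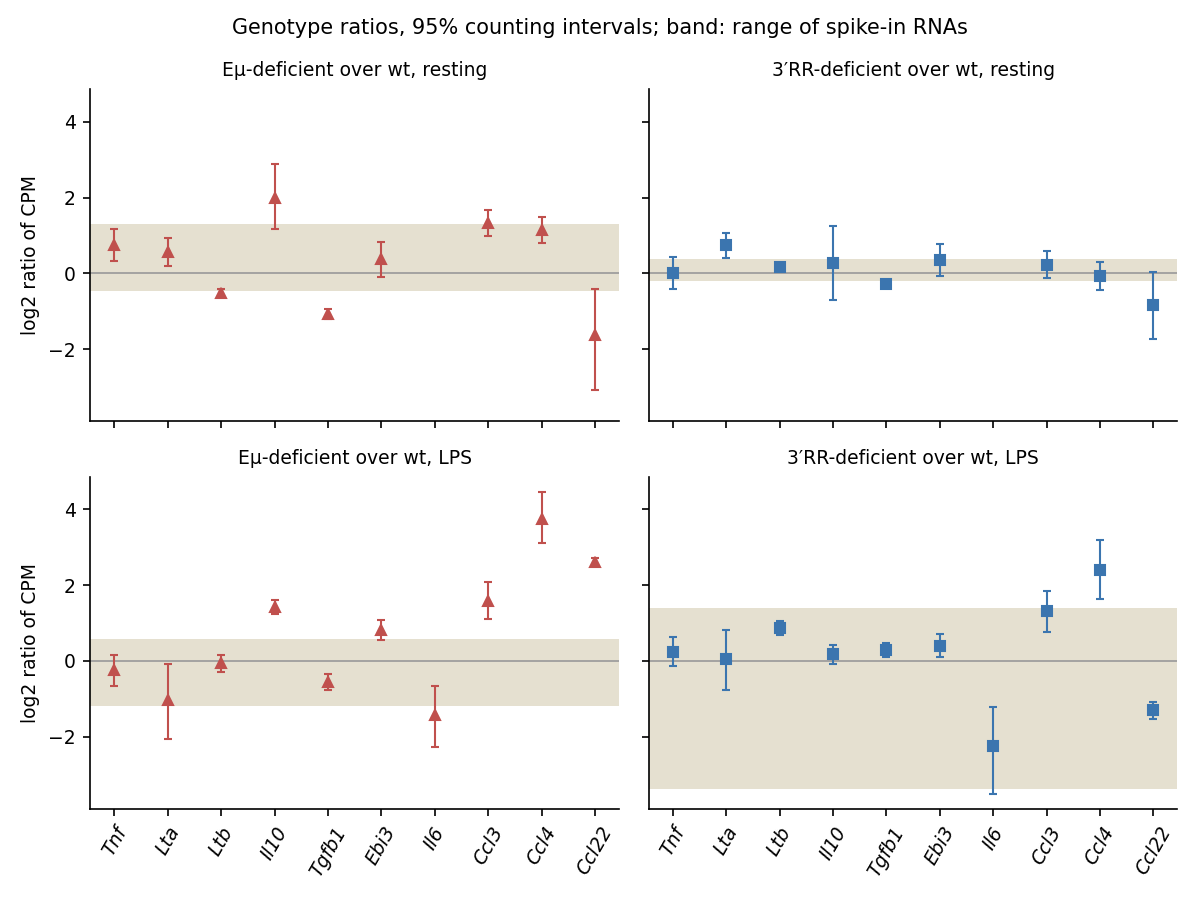
Log2 ratio of each mutant library to the wt library of the same state, with 95% counting intervals and the range of 35 spike-in RNAs as a band. Il10, Ebi3, Ccl3, Ccl4 and Ccl22 lie above the band in LPS-stimulated Eμ-deficient cells, and Il6 at rest is left out as too low to compare.

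Between genotypes at rest, 9 of the 10 genes could be compared, all but Il6. In the Eμ-deficient library, 3 of the 9 (Il10, Ccl3 and Ccl4) were more than 2-fold higher than wt, against 12.6% of 14242 genes, and 2 (Tgfb1 and Ccl22) more than 2-fold lower, against 5.70%. In the 3′RR-deficient library, 0 of the 9 were past 2-fold in either direction, against 5.37% higher and 3.84% lower of 14311 genes. After LPS all 10 could be compared, although Il6 had 8 counts in the 3′RR-deficient library. The Eμ-deficient library had 4 of 10 (Il10, Ccl3, Ccl4 and Ccl22) higher, against 8.16% of 13422 genes, and 2 (Il6 and Lta) lower, against 3.92%. The 3′RR-deficient library had 2 (Ccl3 and Ccl4) higher, against 11.0% of 13316 genes, and 2 (Il6 and Ccl22) lower, against 12.6%. With 9 or 10 genes and 1 library per group, these shares describe the libraries, and the plot of genotype ratios shows which of them exceed the spike-in RNAs.

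In the additive model, none of the 10 genes was called for Eμ deficiency, where 170 of 14600 genes (1.16%) were, 133 of them higher. By unadjusted p under 0.05, 4 of the 10 passed (Il10, Ccl3, Ccl4 and Tgfb1), as did 1267 of the 14600. The DESeq2 Wald test called Il10 and Ccl4, with 340 of 14600 genes called in all, and limma-voom 0 of the 10, with 226 of 14600. Without a filter on low counts edgeR called Il10, Ccl3, Ccl4 and Ccl22, all higher, with 605 of 29041 genes called. None was called for 3′RR deficiency, where 99 of 14600 genes (0.678%) were, and 0 of the 10 had an unadjusted p under 0.05, against 831 of the 14600. DESeq2, limma-voom and the other 8 alternative fits called 0 of the 10 as well. A missed threshold in a design without replicates does not show that levels were equal.

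Markers of other cells moved with these comparisons. B-cell markers were abundant in all libraries, 8 of 8 with at least 10 counts in each, at a summed 3090, 2320 and 3420 CPM in resting wt, Eμ-deficient and 3′RR-deficient cells and 2070, 1820 and 2160 CPM after LPS. Among them Ms4a1 had 583 CPM in the wt LPS library and Pax5 579 CPM in the resting wt library, the highest values of the list in those libraries. The 12 macrophage and monocyte markers summed to 233, 696 and 272 CPM at rest, led by Lyz2 at 79.0, 179 and 59.1 CPM, and to 28.3, 46.5 and 38.5 CPM after LPS. Of these, 11 of 12 fell with LPS, against 21.1% of all genes tested. C1qa, C1qb and C1qc were all at 0 counts in the wt LPS library, at 12, 4 and 4 in the Eμ-deficient and at 3, 0 and 2 in the 3′RR-deficient LPS library. The resting Eμ-deficient library, high in Il10, Ccl3 and Ccl4, thus also had the most macrophage marker RNA, and the part of these cells in those levels was not tested. After LPS the Eμ-deficient library, highest in Ccl22 and Ccl4, again had the largest macrophage marker sum, with Lyz2 at 14.9 against 3.68 CPM in wt. Itgam, the most abundant of the 12 markers in the wt LPS library, alone was lower in the Eμ-deficient one, at 5.62 against 9.99 CPM. The part of macrophages in the Ccl22 and Ccl4 levels was not tested either.

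**Figure D4:**
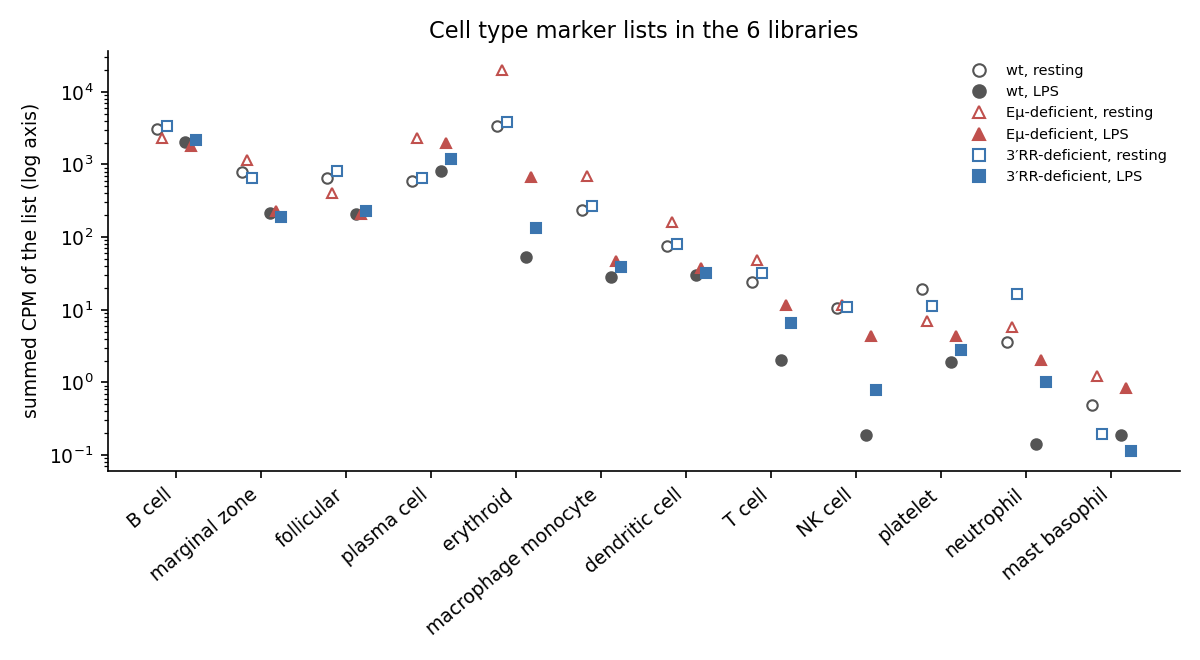
Summed CPM (log axis) of the marker genes of each cell type or B-cell subset in the 6 libraries, open for resting and filled for LPS. All lists but the plasma cell markers are lower after LPS in wt cells, and 8 of the 12 lists, all but B-cell, follicular, platelet and neutrophil markers, are highest in the Eμ-deficient library of each state.

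Other lists in the plot of markers behaved as follows. The 8 dendritic cell markers summed to 75.6, 162 and 81.0 CPM in resting wt, Eμ-deficient and 3′RR-deficient cells and 30.4, 37.0 and 32.4 CPM after LPS. In the LPS libraries Flt3 alone held 27.7 to 29.3 CPM and Clec9a had at most 1 count. Ccl22 thus rose while 7 of the 8 dendritic cell markers fell, against 21.1% of all genes tested. Their part in Ccl22 was not tested. T-cell markers (10 genes, led by Cd4 at rest) went from 24.1, 48.3 and 31.8 to 2.01, 11.6 and 6.63 CPM, and NK-cell markers (6 genes, led by Prf1) from 10.7, 11.8 and 10.9 to 0.191, 4.31 and 0.786 CPM. In each of these lists the Eμ-deficient LPS library was the highest of the LPS libraries. Erythroid markers (6 genes, led by hemoglobin genes) went from 3350, 20100 and 3860 to 52.9, 670 and 133 CPM, and platelet markers (4 genes, led by Itga2b at rest) from 19.1, 7.11 and 11.3 to 1.91, 4.31 and 2.81 CPM.

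Neutrophil markers (8 genes) had 3.58, 5.75 and 16.3 CPM at rest and 0.143, 2.06 and 1.01 CPM after LPS, with Ly6g at 0 throughout, and the 4 mast cell and basophil markers had under 10 counts in every library, with sums of 0.112 to 1.21 CPM. Among B-cell subsets, marginal zone markers (6 genes, led by Cr2 except in the 3′RR-deficient LPS library) summed to 780, 1170 and 650 CPM at rest and 218, 232 and 188 CPM after LPS, and follicular markers (4 genes) to 644, 404 and 819 CPM and 211, 207 and 226 CPM. Plasma cell markers (6 genes, led by Irf4 in wt and 3′RR-deficient cells) summed to 598, 2320 and 662 CPM at rest and 819, 1990 and 1190 CPM after LPS, and in Eμ-deficient cells led by Jchain at 1730 and 803 CPM. The resting Eμ-deficient library thus had higher marginal zone and plasma cell sums and a lower follicular sum than wt. The higher sums lean on Cr2, at 731 against 394 CPM in wt, and Jchain, at 1730 against 113 CPM. Dtx1 of the marginal zone list, at 204 against 266 CPM, and Irf4, at 366 against 372 CPM, were not higher, and the other members of both lists were. In the same pair of libraries Il10, Ccl3 and Ccl4 were past 2-fold higher and Tgfb1 and Ccl22 past 2-fold lower. The part of these subsets in the 5 genes was not tested.

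Receptors of the 10 genes were mostly lower after LPS. Of 15 receptor genes, 14 were tested, 13 fell and 0 rose, with a median log2 fold change of -1.27 against -0.07 over all genes. Among all genes tested, 21.1% fell and 19.7% rose. Tnfrsf1a, the main Tnf receptor of most cells, went from 6.0, 9.0 and 5.05 CPM to 0.0478, 0.937 and 0.337 CPM (log2 fold change -4.25, SE 0.58, edgeR quasi-likelihood, adjusted p = 0.000682). Ltbr, the lymphotoxin β receptor of stromal and myeloid cells, went from 2.31, 3.86 and 1.75 to 0.0478, 0.281 and 0 CPM. Macrophage markers fell over the same step, as given above, and their part in these falls was not tested. Il10ra, the ligand-binding Il10 receptor chain, was at 132, 85.1 and 129 CPM at rest and 53.5, 39.2 and 78.3 CPM after LPS, a fall of 1.05 on the log2 scale, so that Il10 rose while its receptor fell. Tnfrsf1b, the second Tnf receptor, was the 1 tested receptor not called, with 12.9 to 33.7 CPM in the 6 libraries. Ccr4, the receptor of Ccl22, had at most 5 counts and was not tested.

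**Figure D5:**
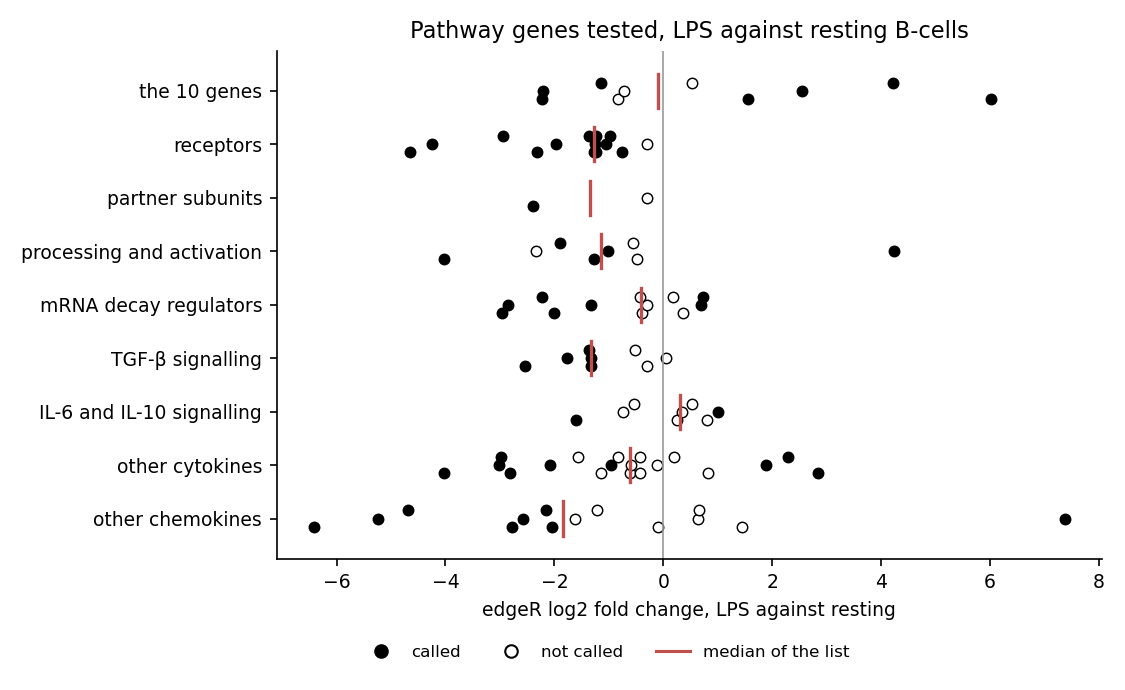
The edgeR log2 fold change with LPS of each tested gene in 9 lists, filled where called, with the median of each list as a line. Receptors and TGF-β signalling genes lie mostly below 0, and the 10 genes are spread from -2.22 to 6.02.

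Among 10 genes of processing and activation, 8 were tested, 1 rose and 4 fell (median -1.15), where 19.7% of all genes tested rose and 21.1% fell. The riser was Lrrc32, which encodes GARP, the membrane anchor of latent TGF-β, at 0.770, 0.0757 and 1.31 CPM at rest and 8.84, 7.59 and 23.0 CPM after LPS (log2 fold change 4.23, SE 0.45, edgeR quasi-likelihood, adjusted p = 0.000224). Its relative Nrros fell, from 232, 199 and 184 to 51.3, 50.4 and 63.7 CPM, so that the anchors of latent TGF-β changed in opposite directions while Tgfb1 itself fell. Thbs1, Rhbdf2 and Furin fell too, and Adam17, the Tnf sheddase, had 48.2 to 79.7 CPM and was not called. Of 8 TGF-β signalling genes 5 fell and 0 rose (median -1.32), including the inhibitory Smad7, from 103, 43.4 and 81.1 to 10.2, 12.3 and 14.8 CPM. Of 8 genes of interleukin 6 and 10 signalling, Bcl3 rose and Jak2 fell (median 0.31), while Stat3 had 85.0 to 146 CPM and was not called. Of the 4 partner subunits 2 were tested, and Il12b, the p40 chain, fell from at most 34 counts to at most 5.

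Of 12 regulators of mRNA decay, 5 fell and 2 rose (median -0.40), where 21.1% of all genes tested fell and 19.7% rose. Zfp36, which binds the AU-rich letters printed above for Tnf, went from 382, 487 and 396 CPM to 43.8, 80.1 and 55.7 CPM (log2 fold change -2.85, SE 0.27, edgeR quasi-likelihood, adjusted p = 0.000137). Its relatives Zfp36l1 and Zfp36l2 fell as well, by 1.33 and 2.96 on the log2 scale. Zc3h12a, which encodes regnase-1, a nuclease for Il6 mRNA, fell from 110, 82.0 and 99.0 to 20.3, 22.1 and 30.9 CPM, and Zc3h12c fell by 2.23. Elavl1 and Hnrnpd rose by under 2-fold, at log2 fold changes of 0.73 and 0.69. Of the 10 genes, the 4 that rose had 10 (Il6), 6 (Il10), 2 (Ccl22) and 1 (Ebi3) ATTTA pentamers. The 3 genes that fell had 3 (Lta), 1 (Tgfb1) and 0 (Ltb), and those not called had 8 (Tnf), 5 (Ccl3) and 2 (Ccl4). The numbers of pentamers thus overlap between the genes that rose and fell, and their relation to the LPS change was not tested.

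The 10 genes belong to larger families whose other members were mostly low. Of 34 other cytokine genes, 19 were tested, 3 rose and 6 fell (median -0.61), and of 23 other chemokine genes, 14 were tested, 1 rose and 7 fell (median -1.84). Among all genes tested, 19.7% rose and 21.1% fell. Mif, an abundant cytokine also known as a tautomerase, rose from 61.9, 56.1 and 75.2 CPM to 258, 255 and 459 CPM (log2 fold change 2.29, SE 0.26, edgeR quasi-likelihood, adjusted p = 0.000302). Tnfsf4 and Tnfsf9, co-stimulatory ligands of T-cells, were called as rises on low counts. Tnfsf4 went from 3, 3 and 1 counts to 16, 26 and 4, and Tnfsf9 from 20, 5 and 8 counts to 26, 34 and 24. In wt cells Tnfsf9 was nearly level, at 1.10 CPM at rest and 1.24 CPM after LPS. Il16 had 95.6 to 164 CPM and was not called. Il1b, Il18, Tnfsf13, Fasl, Tgfb2 and Flt3l fell. Il5, Il17a and Ifnb1 had 0 counts in all 6 libraries, and Il2 and Il4 at most 5.

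Cxcl3 was the chemokine that rose, from 0 counts in the 3 resting libraries to 14, 49 and 0 after LPS, so that the rise is of wt and Eμ-deficient cells. Ccl6, Ccl9, Cxcl1, Cxcl2, Cxcl9, Cxcl12 and Cxcl16 fell, as did the macrophage markers. Ccl17, which shares the receptor Ccr4 with Ccl22, had at most 3 counts, in contrast to up to 3449 for Ccl22. Ccl5, a chemokine of activated lymphocytes, had 9.35, 9.46 and 12.2 CPM at rest and 5.83, 22.1 and 6.96 CPM after LPS and was not called, with the Eμ-deficient LPS library again the highest. In the edgeR quasi-likelihood model of all 6 libraries, no gene of these 2 lists was called between a mutant and wt, and other fits were not examined for them.

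B-cell activation genes show the state of the cells. Of 8, 2 rose and 4 fell with LPS (median -0.89), where 19.7% of all genes tested rose and 21.1% fell. Mki67, a proliferation marker, rose from 45.9, 140 and 85.6 to 475, 623 and 593 CPM. Cd69, Cd86, Myc and Cd14 fell. Tlr4, which binds LPS, had 7.19 to 18.5 CPM in the 6 libraries and was not called.

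Of 9463 genes with at least 5 CPM on average that are neither among the 10 nor immunoglobulin genes, the 3 most like each of the 10 across the 6 libraries were listed by Pearson's r of log2 CPM. These r describe 6 points that share the step from resting to LPS, and they say nothing of shared control. Nudt4, Ifih1 and Hmox2 were closest to Il10 (r 0.993 to 0.995), Zc3h14, Naa50 and Kbtbd8 to Il6 (0.997 to 0.999), and Tmed10, Ifit1 and Ccdc6 to Ccl22 (0.984 to 0.987). Ifih1 and Ifit1 are interferon-induced genes, and Ifit1 had 2.42, 1.36 and 1.12 CPM at rest and 11.2, 34.5 and 11.7 CPM after LPS. Reep5, Bhlha15 and Vimp were closest to Ebi3 (0.993 to 0.998), of which Bhlha15 encodes a transcription factor of secretory cells and went from 2.64, 4.92 and 4.76 to 19.5, 41.2 and 27.3 CPM.

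Among genes that fell, AB124611, Slc12a7 and Gpsm1 were closest to Ltb (0.998 to 0.999), Coq10a, Ahnak and Gm37568 to Lta (0.987 to 0.991), and Spns2, Prkab1 and Zfp608 to Tgfb1 (0.997). Ints9, Glrx5 and Mtr were closest to Tnf, with lower r of 0.952 to 0.970. Faah, Ttn and 4632428N05Rik were closest to Ccl3 (0.971 to 0.988) and Sdc3, Cacna1h and Ttn to Ccl4 (0.961 to 0.978). Ttn, in both lists, had 3.36, 20.6 and 3.16 CPM at rest and 0.0956, 5.71 and 1.80 CPM after LPS in wt, Eμ-deficient and 3′RR-deficient cells, with the Eμ-deficient library the highest in each state, like Ccl3 and Ccl4.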

How the data were processed

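The authors prepared stranded total RNA libraries, aligned read pairs (150 nt) to mm10 using STAR 2.4.0a with Ensembl 77 models, and used featureCounts (Subread 1.4.6-p1) to count fragments for each gene name, counting multi-mapping reads too. The deposited table gives raw counts. Strand option 1 was used, and in 17 of 17 pairs of a gene and its named antisense partner the gene had more counts. The 92 spike-in RNAs, 4.75% to 7.10% of counts, were left out of library sizes. The largest gene, Rn18s-rs5, took 16.4% to 19.5%.

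Genes reaching 10 counts in 2 or more libraries were fitted with edgeR 4.0.16 (R 4.3.3; quasi-likelihood, additive terms for genotype and state, Benjamini-Hochberg, threshold 0.05), with the code tested on simulated data. Intervals came from scipy 1.17.1. Positions, exons and 3′UTRs are from GENCODE M21. A pair of libraries with under 10 counts in both was taken as too low to compare. The named genes are the 10, those of the lists, for which called and uncalled genes are counted and single genes were picked by their relation to the 10 after their values were seen, and the 3 most correlated genes of each of the 10. The 10 genes and the lists were chosen with earlier results of these data known. Alternatives were other scalings, filters, DESeq2 1.42.0, limma-voom (limma 3.58.1), no genotype term, each genotype left out in turn, and, chosen after seeing the data, GC trend removal in the fit and TMM factors of protein-coding genes alone.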

Additional observations from a re-analysis of the deposited data

Results flagged for a closer look

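For the genes below, a log2 ratio had one sign in one state or genotype and the other sign in another, each ratio from 1 pair of libraries, so that the differences were not tested. The Eμ-deficient to wt ratio of Ccl22 was -1.64 at rest, on 7 against 30 counts, and 2.61 after LPS, a difference of 4.25. That of Lta was 0.57 and -1.03, a difference of -1.59, and the counting intervals of all 4 ratios lay clear of 0, but both ratios of Lta are inside the spike-in range of their pair. For Tnf the Eμ-deficient to wt ratio was 0.75 at rest and -0.25 after LPS, a difference of -1.0, and the same 4 counts give LPS to resting ratios of 0.77 in wt and -0.23 in Eμ-deficient cells, again a difference of -1.0. The intervals of -0.25 and -0.23 include 0. With libraries scaled by the spike-in total the resting ratios of Lta and Tnf were -0.25 and -0.06, so that the change of sign in both depends on the scaling.

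The 3′RR-deficient to wt ratio of Tgfb1 was -0.29 at rest and 0.28 after LPS, a difference of 0.57 with both intervals clear of 0, but 0.28 is inside the spike-in range of its pair, and with the GC trend removed it was 0.00, so that the change of sign is lost. That of Ccl4 was -0.06, whose interval includes 0, and 2.39, a difference of 2.45.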

How the results depend on the processing

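The 7 LPS calls kept their direction and passed the threshold under every alternative that tested them, and Tnf, Ccl3 and Ccl4 passed it under none. Il6 was not tested with a filter of 10 counts in all 3 libraries of a state or without the wt or Eμ-deficient libraries. Genes called with LPS numbered 3960 to 6655 with 1 genotype left out, and members called 6 to 7. Scaling by the spike-in total moved the median log2 fold change of all genes from -0.07 to -0.28 and the share of LPS calls that were rises from 48.4% to 33.4%.

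Between Eμ-deficient and wt libraries, 605 genes were called without a filter on low counts and 340 with the DESeq2 Wald test, against 170. Of the 10 genes 4, 2 and, with the GC trend removed, 1 (Il10) were called. With spike-in scaling 63.3% of calls were rises, against 78.2%. Rises were nearly unchanged, at 131 against 133, and falls numbered 76 against 37. Between 3′RR-deficient and wt libraries, 339 genes were called without a filter, 178 with the DESeq2 Wald test, 170 with spike-in scaling and 61 with the stricter filter, against 99, with 39.8% and 35.3% rises without a filter and with spike-in scaling, against 25.3%. Beyond the filters' own change in the genes tested, the cause was not tested.

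Of 38 ratios within a state, 15 were past 2-fold, 9 of them under all 8 alternatives, and none of the 15 changed sign. Some smaller ratios with intervals clear of 0 did. With spike-in scaling, the Eμ-deficient to wt ratio at rest was -0.06 for Tnf (0.75 before) and -0.25 for Lta (0.57), and the 3′RR-deficient one -0.09 for Ltb (0.16). With the GC trend removed, that of Ltb in Eμ-deficient cells at rest was 0.01 (-0.52) and that of Ebi3 in 3′RR-deficient cells after LPS -0.22 (0.40). The 6 that fell under it were, in Eμ-deficient cells, Tgfb1 (-0.90), Ccl3 (0.51), Ccl4 (0.32) and Ccl22 (-0.79) at rest and Lta (-0.63) after LPS, and Ccl22 (-0.76) in 3′RR-deficient cells after LPS. The values of Ccl3, Ccl4 and the last are from spike-in scaling. Newly past 2-fold with it were Ltb in Eμ-deficient cells at rest (-1.33) and in 3′RR-deficient cells after LPS (1.41), and Ccl22 in 3′RR-deficient cells at rest (-1.08, and -1.03 by total count). Depth limits Il6 in 4 libraries, Ccl22 in the resting Eμ-deficient library and Lta after LPS in Eμ-deficient cells.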
